A study of Mus musculus with 10 samples.

Results

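The transcripts described here are those of amino acid transporters, taken as every gene of the deposited table whose symbol begins with Slc1a, Slc3a, Slc6a, Slc7a, Slc36a, Slc38a or Slc43a followed by a number. The rule found 57 of the 19213 genes listed. Of these, 54 are named as carriers or carrier subunits and 3 (Slc36a1os, Slc6a19os and Slc7a6os) are genes named for lying opposite a carrier. RNA was sequenced from 3 endocrine cell types sorted by FACS from islets of adult mice, with 2 libraries of delta cells (1 female, 1 male), 5 of beta cells (3 female, 2 male) and 3 of alpha cells (1 female, 2 male). All mice were triple transgenic and carried mIns1-H2b-mCherry, a nuclear red reporter that marks beta cells, together with a floxed YFP allele. YFP was switched on by Sst-Cre in the mice used for delta cells and by Gcg-cre in those used for alpha cells, so a cell that had used either promoter earlier in its life is labelled too. For each pool, islets came from 10 to 12 mice of 1 sex and spent a night at 5.5 mM glucose before they were dissociated. Whether every library had its own pool is not stated in the labels, and the p-values cover only the spread between these libraries, part of which may be technical. The table gives RPKM, a read density per kilobase of gene that is scaled for library size, and 1 RPKM stood for 16.7 to 26.7 reads per kilobase in libraries of 16688097 to 26684086 reads.

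Amino acid carriers bring amino acids across the plasma membrane or the membranes of lysosomes and vesicles, each family with its own substrates and driving ion. In islets, arginine is a classical stimulus of glucagon and insulin release, leucine and glutamine feed insulin release, and circulating amino acids, glutamine among them, drive alpha cell growth when glucagon signalling in the liver is blocked. The glutamine carrier Slc38a5 is known for its part in that response in mouse alpha cells. Carrier genes are also regulated as a group: when amino acids are short, the kinase GCN2 (Eif2ak4) raises translation of the transcription factor ATF4, which binds amino acid response elements near genes of amino acid synthesis, of transfer RNA charging and of carriers such as Slc7a11.

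To show what such an element looks like in carriers and in known targets, promoters of 2 carriers and 2 genes of the amino acid response are printed here as RefSeq gives them for GRCm38.p6, from 250 bases before to 50 bases after the start site, 5′ to 3′ on the strand of the gene. Capitals mark matches to TGATGNAA, the core of the amino acid response element, searched on both strands.
Slc7a11, chr3:50443564-50443863, minus strand: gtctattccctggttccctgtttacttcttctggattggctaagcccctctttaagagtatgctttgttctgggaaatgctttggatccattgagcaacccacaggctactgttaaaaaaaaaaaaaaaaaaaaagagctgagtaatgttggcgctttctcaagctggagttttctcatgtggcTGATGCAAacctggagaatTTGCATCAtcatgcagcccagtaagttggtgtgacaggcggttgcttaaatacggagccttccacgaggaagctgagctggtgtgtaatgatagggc
Slc1a4, chr11:20332664-20332963, minus strand: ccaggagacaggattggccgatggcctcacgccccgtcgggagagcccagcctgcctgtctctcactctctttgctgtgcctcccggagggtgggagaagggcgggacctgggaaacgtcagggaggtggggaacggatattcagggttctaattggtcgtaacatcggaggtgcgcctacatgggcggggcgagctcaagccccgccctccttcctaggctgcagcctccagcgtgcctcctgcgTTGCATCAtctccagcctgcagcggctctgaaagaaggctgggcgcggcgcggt
Asns, chr6:7693160-7693459, minus strand: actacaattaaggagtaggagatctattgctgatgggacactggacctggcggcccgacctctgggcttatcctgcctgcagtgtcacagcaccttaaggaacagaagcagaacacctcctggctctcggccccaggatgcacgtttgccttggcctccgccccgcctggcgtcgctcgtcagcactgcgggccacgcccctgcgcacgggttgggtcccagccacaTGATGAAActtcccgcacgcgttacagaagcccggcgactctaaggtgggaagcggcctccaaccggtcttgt
Trib3, chr2:152344011-152344310, minus strand: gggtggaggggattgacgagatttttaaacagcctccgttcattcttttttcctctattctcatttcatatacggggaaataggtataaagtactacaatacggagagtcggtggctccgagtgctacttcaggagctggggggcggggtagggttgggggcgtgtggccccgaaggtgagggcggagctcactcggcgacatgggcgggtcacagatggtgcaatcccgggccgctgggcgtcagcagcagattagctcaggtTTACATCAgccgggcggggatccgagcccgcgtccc
Slc7a11 held 2 matches facing each other, at -66 and -47 from the start site (counted as 0), and the other 3 promoters held 1 each, at -4 in Slc1a4, -23 in Asns and 14 in Trib3. Promoters were found for 44 of the 57 members. Of their 65 promoters 4 held a match (Slc1a4, Slc7a11 and Slc7a7), or 6.15%, against 3.97% of the 32851 promoters in the table. The windows of Slc38a5 and Slc7a8 held none. Slc7a2 and Slc7a5 were among the members with no promoter found, so they were not searched. A match is a description of the sequence, and binding was not measured.

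Of the 57 members, 33 reached 1 RPKM in at least 2 libraries and were tested (31 carriers and 2 opposite-strand genes). The other 24 were low throughout, with a highest value of 1.05 RPKM in any library, and 19 of them stayed below 0.5 RPKM in every library. The 24 include the glial glutamate carriers Slc1a2 and Slc1a3, the noradrenaline and serotonin carriers Slc6a2 and Slc6a4, and Slc3a1, the partner of the renal cystine carrier, which reached 0.900 RPKM in alpha library 2. In 21 members the mean was at least 10 RPKM in 1 or more cell types, and in 5 it was at least 100 RPKM. The 54 carriers added up to 800 ± 1.19 RPKM (SD, n = 2) in delta cells, 873 ± 74 (n = 5) in beta cells and 994 ± 46.7 (n = 3) in alpha cells. The most abundant members were Slc7a14 in delta, Slc3a2 in beta and Slc38a4 in alpha cells.

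**Figure D1:**
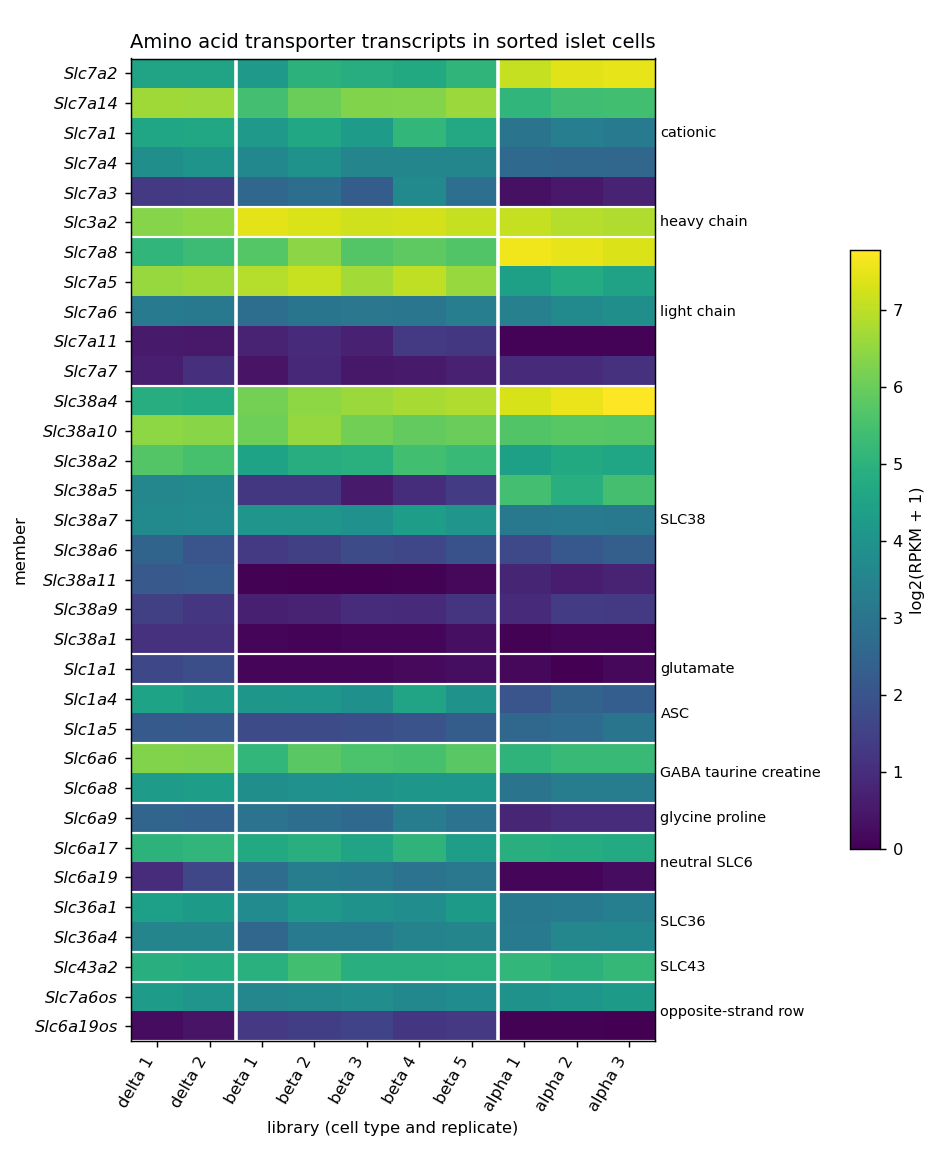
Level of each of the 33 tested members (rows, grouped by role) in each of the 10 libraries (columns), as log2(RPKM + 1) on a colour scale. Slc7a2, Slc7a8, Slc38a4 and Slc38a5 are brightest in the 3 alpha libraries, and Slc7a5, Slc7a1 and Slc1a4 are darkest there.

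Differences were tested with limma on log2(RPKM + 1), with calls made where the p adjusted over all 12700 tested genes was under 0.05. Between alpha and beta cells 24 of the 33 members were called, 9 higher and 15 lower in alpha cells. The share called higher was 27.3% of members against 23.7% of all genes, and the share called lower was 45.5% against 30.3%. Between delta and beta cells 9 members were higher and 9 lower in delta cells, 27.3% each way, against 37.4% and 13.3% of all genes. Between delta and alpha cells 16 were higher and 7 lower in delta cells (48.5% and 21.2% of members), against 32.1% and 5.89% of all genes. The comparisons with beta cells share the 5 beta libraries. Slc1a1, Slc38a1 and Slc38a11, counted as higher in delta cells in both delta comparisons, passed the filter through the delta libraries alone. Slc6a19, Slc6a19os and Slc7a11, counted as lower in both comparisons with beta cells, passed it only through the beta libraries. The place of these members in the counts was therefore largely set by the filter. The median difference of the members was -0.33 on the log2 scale between alpha and beta cells (all genes -0.02), 0.27 between delta and beta (all genes 0.25) and 0.55 between delta and alpha (all genes 0.26). The counts in delta cells rest on 2 libraries: without delta library 1 the split from beta cells was 1 higher and 5 lower, and without delta library 2 it was 5 and 5. Scaling by median ratios moved the median of all genes between delta and beta cells from 0.25 to -0.00483 and gave 4 members higher and 11 lower, so small differences of delta cells depend on the scaling.

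Cationic carriers take up arginine, lysine and ornithine, and Slc7a2 (CAT2) was the member of this group that rose in alpha cells. Slc7a2 (chromosome 8, 40862396 to 40922308, plus strand) stood at 134, 171 and 176 RPKM in the 3 alpha libraries, at 22.2 and 22 in the delta libraries, and at 17.2, 30.5, 27.5, 25.6 and 33.1 in the beta libraries. Each alpha library was thus far above each library of the other types, and the delta values lay inside the range of the beta values. The alpha mean was 5.98 times the beta mean, with a log2 fold change of 2.63 (SE 0.17, limma adjusted p = 2.5e-06). Between delta and beta cells the difference was -0.21 (SE 0.19, limma adjusted p = 0.38). In bulk samples a lower share of cells that use a gene and less of its RNA per cell cannot be told apart. The delta libraries held Gcg, the glucagon gene, at 8.72% of its alpha mean, and the alpha cell factors Irx1 and Irx2 at 12.5% and 15.4% of theirs. When the share of alpha RNA set by Gcg was removed from the delta libraries, Slc7a2 there was 8.03 to 8.23 RPKM and was called lower than in beta cells (-1.55, limma adjusted p = 0.00019), as it also was under median-ratio scaling and with hormone reads left out of the library totals.

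The remaining cationic members fell in alpha cells. Slc7a1 (CAT1, the broadly expressed carrier of the group) averaged 23.6 ± 0.409 RPKM (SD, n = 2) in delta cells, 23.8 ± 6.68 (n = 5) in beta cells and 8.14 ± 1.04 (n = 3) in alpha cells, a log2 fold change of -1.32 between alpha and beta (SE 0.16, limma adjusted p = 0.000147). Slc7a3 (CAT3) was highest in beta cells, at 3.92 to 11.9 RPKM, with 1.48 and 1.59 in delta cells and 0.278 to 0.677 in alpha cells, and was lower than in beta cells in both comparisons (-1.47 in delta cells, limma adjusted p = 0.00133, and -2.19 in alpha cells, limma adjusted p = 4.44e-05). Slc7a4, a relative by sequence, averaged 14.3, 11.7 and 5.12 RPKM in delta, beta and alpha cells. Slc7a14, another relative, averaged 99.3 ± 0.482, 72.1 ± 19.8 and 39 ± 4.56 RPKM and was the most abundant member in delta cells. Slc7a14 lost its call between alpha and beta cells without alpha library 3 or with quantile normalization. Of the summed level of Slc7a1, Slc7a2 and Slc7a3, Slc7a2 made up 46.8% ± 0.636 (SD, n = 2) in delta cells, 47.2% ± 7.69 (n = 5) in beta cells and 94.9% ± 0.142 (n = 3) in alpha cells. An exon of Slc7a2 overlaps Gm26584 and one of Slc7a4 overlaps P2rx6, each on the opposite strand, and reads of such pairs cannot be told apart because the kit does not mark strand.

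**Figure D2:**
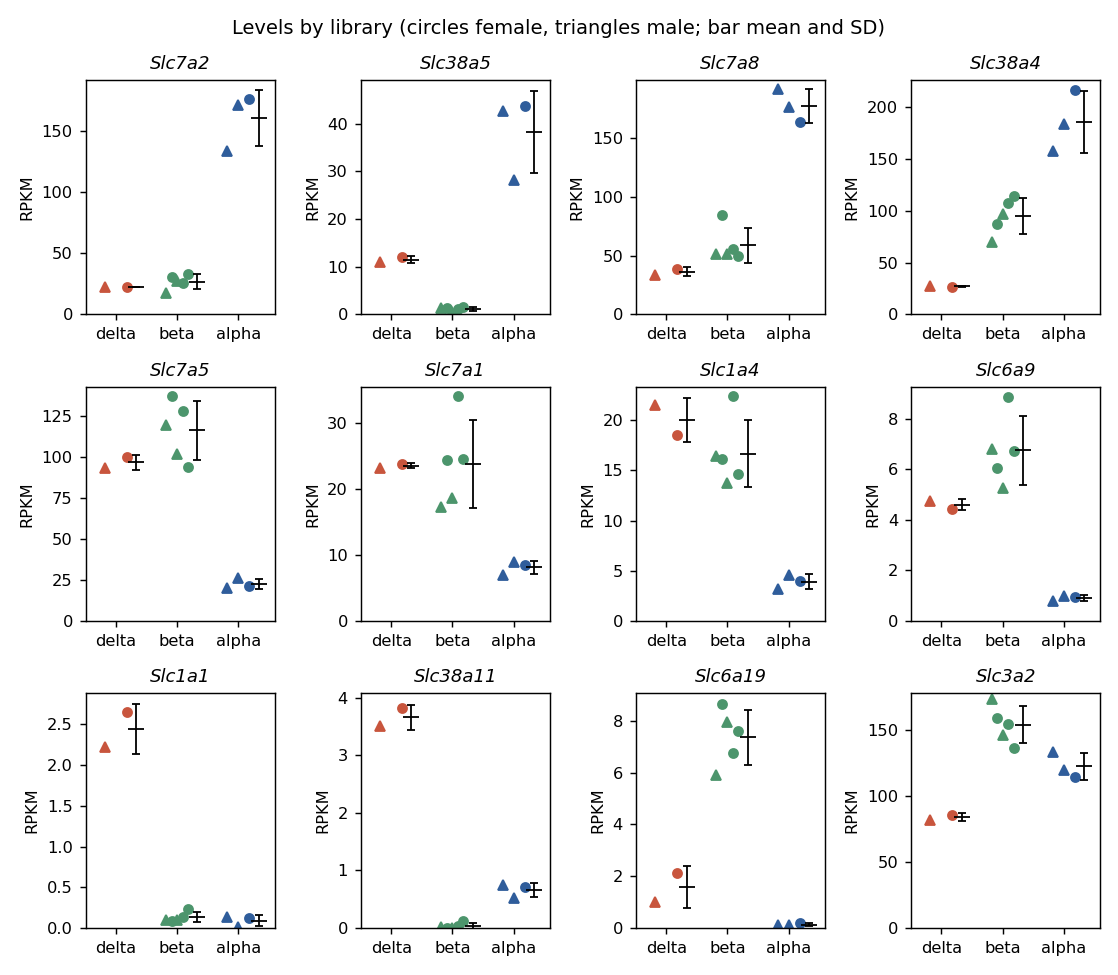
RPKM of 12 members in every library by cell type (circles female, triangles male, bars the mean and SD on a linear axis that starts at 0). The upper row holds the 4 members enriched in alpha cells, the middle row 4 members lowest there, and in each of these panels the alpha libraries stand clear of the beta libraries.

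Heteromeric carriers join a heavy chain to a light chain that carries the substrate. Their light chains changed places between cell types. Slc7a8 (LAT2, chromosome 14, 54722209 to 54781946, minus strand), a carrier of neutral amino acids, stood at 192, 177 and 163 RPKM in the alpha libraries, at 49.9 to 84.8 with a median of 51.5 in the beta libraries, and at 33.8 and 38.9 in the delta libraries. The 3 cell types did not overlap. The difference between alpha and beta was 1.64 on the log2 scale (SE 0.17, limma adjusted p = 4.69e-05). The lower level in delta cells (-0.63, limma adjusted p = 0.0208) lost its call without either delta library. Once the Gcg-based alpha share was taken out, the delta libraries stood at 18.4 and 23.5 RPKM for Slc7a8 and the difference from beta cells was -1.41 (limma adjusted p = 0.000364).

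Slc7a5 (LAT1, chromosome 8, 121881150 to 121907694, minus strand), which takes up leucine and other large neutral amino acids, went the other way. It stood at 20.2, 26.2 and 21.3 RPKM in the alpha libraries, at 94.2 to 137 with a median of 120 in the beta libraries, and at 93.5 and 100.2 in the delta libraries. All alpha libraries were below all others, while delta and beta cells did not separate (-0.24, limma adjusted p = 0.226). The beta mean was 5.15 times the alpha mean (log2 fold change -2.30, SE 0.14, limma adjusted p = 1.97e-06). The ratio of Slc7a8 to Slc7a5 was 0.375 ± 0.0189 (SD, n = 2) in delta cells, 0.503 ± 0.0771 (n = 5) in beta cells and 7.98 ± 1.4 (n = 3) in alpha cells. Because both levels come from the same library, this ratio does not depend on the scaling between libraries.

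Slc3a2 (CD98 heavy chain), the partner of both, varied less. It averaged 83.6 ± 3.03 RPKM in delta cells, 154 ± 14 in beta cells and 122 ± 10.1 in alpha cells, and was lower than in beta cells by 0.87 on the log2 scale in delta cells (limma adjusted p = 0.000159) and 0.34 in alpha cells (limma adjusted p = 0.0128). Slc7a6 (y+LAT2), which exchanges cationic for neutral amino acids, averaged 8.09, 7.34 and 11.6 RPKM in delta, beta and alpha cells and was higher in alpha than in beta cells (0.63, limma adjusted p = 0.00313). Slc7a7 (y+LAT1), whose exons overlap Oxa1l on the opposite strand, averaged 0.824, 0.541 and 0.999 RPKM. Promoters of Slc7a7 held a TGATGNAA match, as did that of Slc7a11. Among promoters of members lower in alpha than in beta cells, 2 of 14 (14.3%) held a match, those of Slc1a4 and Slc7a11. Among promoters of members higher there, 2 of 14 (14.3%) did, both of Slc7a7. Over all promoters the share was 3.97%, and these counts are too small to compare. The call of Slc7a7 between alpha and beta cells was lost with quantile normalization and when the 3 libraries highest in acinar markers were left out. Slc7a11, which imports cystine in exchange for glutamate and whose promoter holds the facing pair of matches, stood at 0.0578 to 0.0649 RPKM in alpha cells, 0.449 and 0.483 in delta cells and 0.647 to 1.52 in beta cells. It was lower in alpha than in beta cells (-0.86, SE 0.13, limma adjusted p = 0.000617), on a scale that understates changes at such low levels. Slc7a11 reached 1 RPKM only in beta libraries, so it passed the filter through beta cells alone. 

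**Figure D3:**
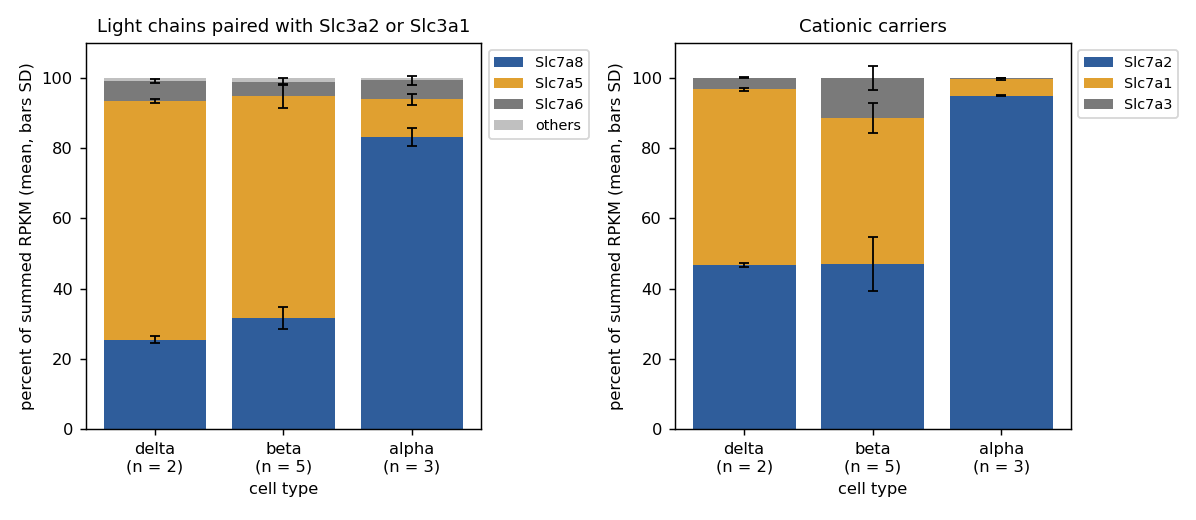
Share of each light chain in the summed RPKM of light chains (left) and of each carrier in the summed RPKM of Slc7a1, Slc7a2 and Slc7a3 (right), as mean percent with SD for each cell type. Slc7a8 makes up 83.2% of light chain RPKM in alpha cells against 25.5% in delta cells and 31.6% in beta cells, and Slc7a2 makes up 94.9% of the cationic sum in alpha cells.

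The SLC38 family moves glutamine and other small neutral amino acids with sodium, and 9 of its 11 members were tested. Slc38a5 (SNAT5, chromosome X, 8271133 to 8280179, plus strand), which carries glutamine, asparagine and histidine, had the largest difference between alpha and beta cells of any member tested on the log2(RPKM + 1) scale. It stood at 42.8, 28.3 and 43.7 RPKM in the alpha libraries, at 11 and 12 in the delta libraries and at 1.39, 1.38, 0.483, 1.02 and 1.55 in the beta libraries. The 3 cell types formed 3 separate ranges. The alpha mean was 32.9 times the beta mean (log2 fold change 4.25, SE 0.19, limma adjusted p = 2.45e-07), and the delta mean was 9.88 times the beta mean (2.58, SE 0.21, limma adjusted p = 1.28e-05). Delta cells held 30% of the alpha level, above the 8.72% at which they held Gcg, and after the share set by Gcg was removed they kept 7.7 to 8.62 RPKM and stayed above beta cells (2.13, limma adjusted p = 4.5e-05).

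Slc38a4 (SNAT4), a sodium-coupled carrier of neutral amino acids, was the most abundant member in alpha cells. It stood at 157, 184 and 217 RPKM in the alpha libraries, at 69.5 to 114 with a median of 96.5 in the beta libraries, and at 27.5 and 26.5 in the delta libraries. Alpha cells were above beta cells (1.04, SE 0.14, limma adjusted p = 0.000289) and delta cells below them (-1.73, SE 0.16, limma adjusted p = 2.74e-05), so the delta level was 14.5% of the alpha level. After removal of the alpha share set by Gcg, Slc38a4 in delta cells was 10.2 to 11.3 RPKM, below beta cells by a log2 fold change of -2.98 (limma adjusted p = 1.01e-06). 

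Other members of the family were highest in delta cells. Slc38a2 (SNAT2), the widely expressed member that is raised by amino acid shortage, averaged 47.7 ± 4.48 RPKM in delta cells, 31.5 ± 7.78 in beta cells and 22.9 ± 2.66 in alpha cells. It was higher in delta than in beta cells (0.64, limma adjusted p = 0.028), but was not called under median-ratio scaling or without delta library 1. The call was also lost with hormone reads left out of the library totals, and without the 3 libraries highest in acinar markers. Slc38a1 (SNAT1) stood at 1.17 and 1.16 RPKM in delta libraries and at most at 0.25 in the others, a difference of 0.97 from beta cells (SE 0.10, limma adjusted p = 4.52e-05). It passed the filter only because both delta libraries were above 1 RPKM, so its call was largely set by the filter. Slc38a11, a less studied relative, gave 114 reads in each delta library (3.51 and 3.82 RPKM), 20, 14 and 20 reads in the alpha libraries and 1, 0, 0, 1 and 5 reads in the beta libraries, where a count of 0 allows up to 3 reads. It was enriched in delta cells (2.18 above beta cells and 1.48 above alpha cells, limma adjusted p = 2.49e-07 and 7.93e-06). Slc38a11 too passed the filter through the delta libraries alone. Enriched here means called higher than in each of the other cell types by at least 1 on the log2 scale.

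Slc38a7, which exports glutamine and asparagine from lysosomes, averaged 12.2, 16 and 7.9 RPKM in delta, beta and alpha cells and was lower in alpha than in beta cells (-0.91, limma adjusted p = 5.37e-05). Slc38a9, the lysosomal arginine sensor of the growth kinase mTORC1, averaged 1.55, 0.91 and 1.34 RPKM and was called in no comparison of cell types. Slc38a10 averaged 84.6, 69.6 and 51.2 RPKM and was lower in alpha than in beta cells (-0.42, limma adjusted p = 0.0291). Slc38a6 averaged 3.89, 2.16 and 3.25 RPKM, and its call between delta and beta cells was lost in 12 alternatives.

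The SLC1 family holds glutamate carriers and carriers of alanine, serine and cysteine. Slc1a1 (EAAT3, chromosome 19, 28835049 to 28913960, plus strand), which takes up glutamate, aspartate and cysteine, stood at 2.23 and 2.66 RPKM in the delta libraries, at 0.0883 to 0.232 in the beta libraries and at 0.016 to 0.129 in the alpha libraries. Its exons overlap 4430402I18Rik on the opposite strand, so reads of that pair cannot be told apart. It was the only glutamate carrier of the 5 listed that was tested and was enriched in delta cells (1.62 above beta cells, SE 0.09, limma adjusted p = 1.34e-06, and 1.64 above alpha cells). Slc1a1 passed the filter through the delta libraries alone. Slc1a4 (ASCT1, chromosome 11, 20302180 to 20332713, minus strand), whose promoter holds a match at -4, stood at 3.14, 4.6 and 3.97 RPKM in the alpha libraries, at 13.8 to 22.4 in the beta libraries and at 21.5 and 18.5 in the delta libraries. All alpha libraries were lower, by 1.82 on the log2 scale from beta cells (SE 0.17, limma adjusted p = 2.16e-05). Slc1a5 (ASCT2), a glutamine exchanger, was higher in alpha cells, at 5.9 ± 1.09 against 2.9 ± 0.573 RPKM in beta cells (0.88, limma adjusted p = 0.000464).

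In the SLC6 family, sodium and chloride drive uptake of neurotransmitters, osmolytes and neutral amino acids. Slc6a19 (B0AT1), the main carrier of neutral amino acids in gut and kidney, was enriched in beta cells. It stood at 5.91 to 8.64 RPKM with a median of 7.62 in the beta libraries, at 0.994 and 2.14 in the delta libraries and at 0.0972 to 0.188 in the alpha libraries. The difference from beta cells was -2.82 in alpha cells (SE 0.14, limma adjusted p = 5.23e-07) and -1.71 in delta cells (SE 0.16, limma adjusted p = 3.05e-05). Outside beta cells Slc6a19 reached 1 RPKM only in delta library 2, so it passed the filter through beta cells. Slc6a19os, an antisense gene across the 5′ part of Slc6a19, followed at a lower level, at 1.59 ± 0.247 RPKM in beta cells, 0.255 ± 0.0865 in delta cells and 0.0259 ± 0.0224 in alpha cells. Exons of the pair do not overlap. Because the kit does not mark strand, unspliced reads of Slc6a19 that fall in Slc6a19os cannot be told apart from its own. Slc6a9 (GlyT1), a glycine carrier whose exons overlap 3 genes on the opposite strand (B4galt2, Ccdc24 and Gm17114), averaged 4.6, 6.74 and 0.91 RPKM in delta, beta and alpha cells and was lower in alpha than in beta cells (-1.97, limma adjusted p = 4.81e-06). 

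Slc6a6, the taurine carrier, stood at 77.8 and 75.7 RPKM in delta cells, 34.7 to 54.1 in beta cells and 31.9 to 37.2 in alpha cells. Its level was higher in delta than in beta cells (0.74, SE 0.14, limma adjusted p = 0.00272), though not without delta library 1 (limma adjusted p = 0.0575). Slc6a8, the creatine carrier, averaged 18.5, 15 and 8.15 RPKM and was lower in alpha than in beta cells (-0.78, limma adjusted p = 0.00017). The call of Slc6a8 between delta and beta cells was lost in 15 alternatives, and that of Slc6a9 in 12. Slc6a17, a carrier of neutral amino acids on synaptic vesicles, averaged 32.6, 25.3 and 27 RPKM and was called in no comparison of cell types.

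Among proton-coupled and facilitative carriers, Slc36a1 (PAT1, of lysosomes) averaged 18.9, 14.9 and 8.51 RPKM in delta, beta and alpha cells and was lower in alpha than in beta cells (-0.70, limma adjusted p = 0.00149). Slc36a4 (PAT4) averaged 10.5, 8.37 and 10.2 RPKM and Slc43a2 (LAT4) averaged 27.6, 31.8 and 33.3 RPKM. Neither was called between any cell types.

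By the enrichment rule 4 members were enriched in alpha cells (Slc7a2, Slc7a8, Slc38a4 and Slc38a5), 3 in beta cells (Slc6a19, Slc6a19os and Slc7a3) and 2 in delta cells (Slc1a1 and Slc38a11). Over all tested genes the rule took 1.8% in alpha cells, 3.01% in beta cells and 4.73% in delta cells. Slc1a1 and Slc38a11 reached 1 RPKM only in the delta libraries, and Slc6a19os only in the beta libraries. Slc6a19 reached it outside the beta libraries only in delta library 2, so it met the filter of 2 libraries through beta cells. These members passed the filter only through the cell type where they were high, so their place in these counts was largely set by the filter. Called lower in alpha cells than in both other types by at least 1 were 6 members (Slc1a4, Slc6a9, Slc6a19, Slc7a1, Slc7a4 and Slc7a5), against 2.98% of all genes. Slc6a19 is counted here too, although it passed the filter through beta cells. 

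**Figure D4:**
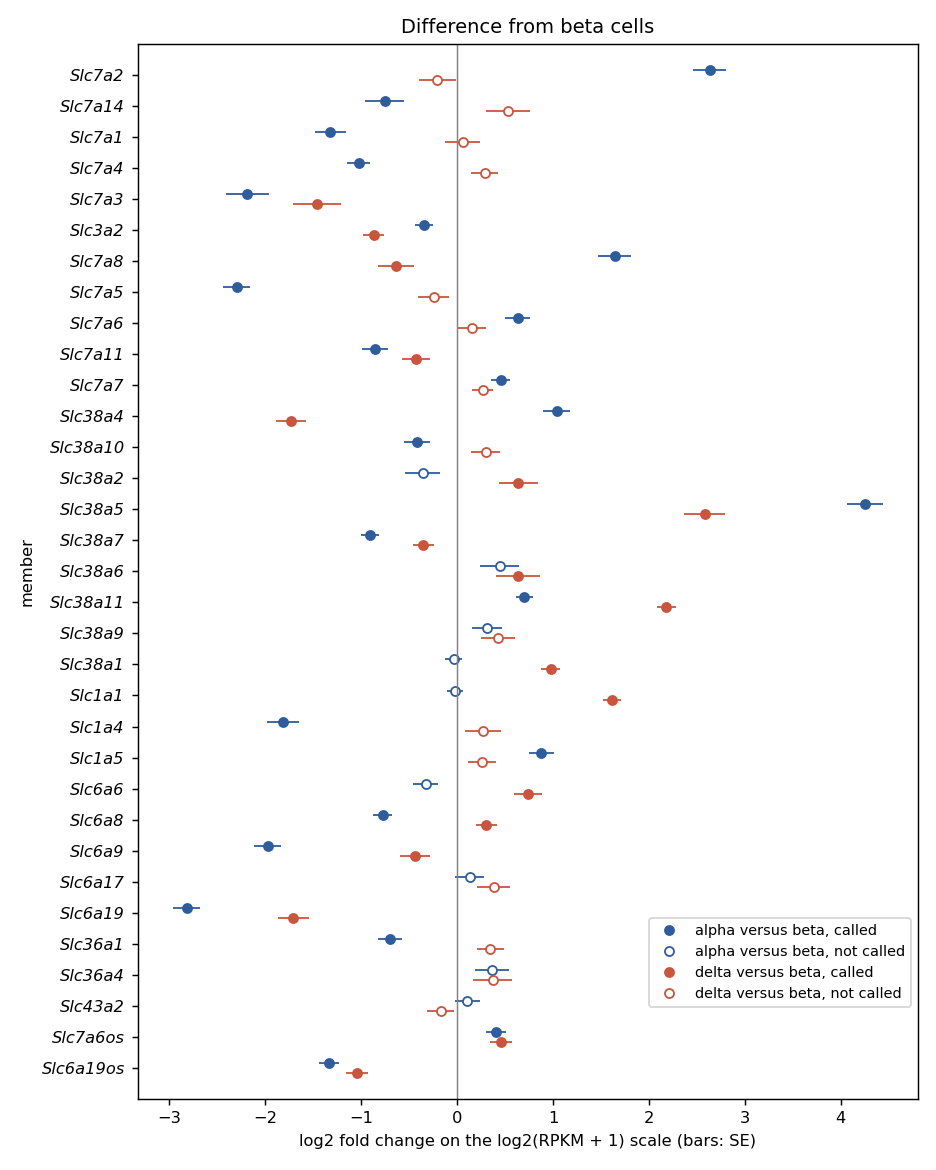
Log2 fold change of the 33 tested members from beta cells in alpha cells (blue) and delta cells (red), with SE bars, filled where called. Slc38a5 is furthest to the right in both comparisons, while Slc38a4 and Slc7a8 lie on opposite sides of 0 in the alpha and delta comparisons, both of which share the beta libraries.

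None of the 33 members was called between female and male libraries, by limma or by its voom variant, with cell type in the fit. The lowest limma adjusted p was 0.77, and 2 members (Slc7a1 and Slc7a7) had an unadjusted p under 0.05. Over all genes 6 were called, or 0.0472%. Delta and alpha cells have 1 female library each, so a small difference between the sexes was not detectable here.

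Genes that respond to amino acid shortage were lowest in alpha cells for most of the list. Of the 19 genes of this list, all tested, 18 (94.7%) were lower in alpha than in beta cells, against 30.3% of all genes. The 1 called higher (5.26%, against 23.7%) was Eif2ak4, the kinase GCN2. The median was -1.92 on the log2 scale against -0.02 over all genes. In delta cells 13 (68.4%) were lower and 1 (5.26%) higher than in beta cells, against 13.3% and 37.4% of all genes. The median there was -0.65 against 0.25. Between delta and alpha cells 15 (78.9%) were higher in delta cells, against 32.1% of all genes. Trib3, a pseudokinase that ATF4 induces, stood at 1.93 to 3.38 RPKM in alpha cells, 21.5 and 22.3 in delta cells and 65.3 to 115 in beta cells. The difference between alpha and beta cells was -4.62 (SE 0.20, limma adjusted p = 1.98e-07). Atf5, a transcription factor of the same pathway, averaged 12.1, 94.6 and 267 RPKM in alpha, delta and beta cells, and Chac1, which breaks down glutathione, averaged 4.01, 63 and 86.7 RPKM. Asns, asparagine synthetase, stood at 41.3 ± 1.99 RPKM in alpha cells, 137 ± 1.82 in delta cells and 232 ± 33 in beta cells (-2.43 between alpha and beta, SE 0.12, limma adjusted p = 3.55e-07). Asns is named here for its printed promoter, a choice made after its values were seen. The count of 18 lower in alpha cells was also 18 without the 3 libraries highest in acinar markers. Without delta library 1 the count lower in delta than in beta cells was 8. Of the 19 promoters found for this list 7 held a TGATGNAA match, or 36.8%.

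**Figure D5:**
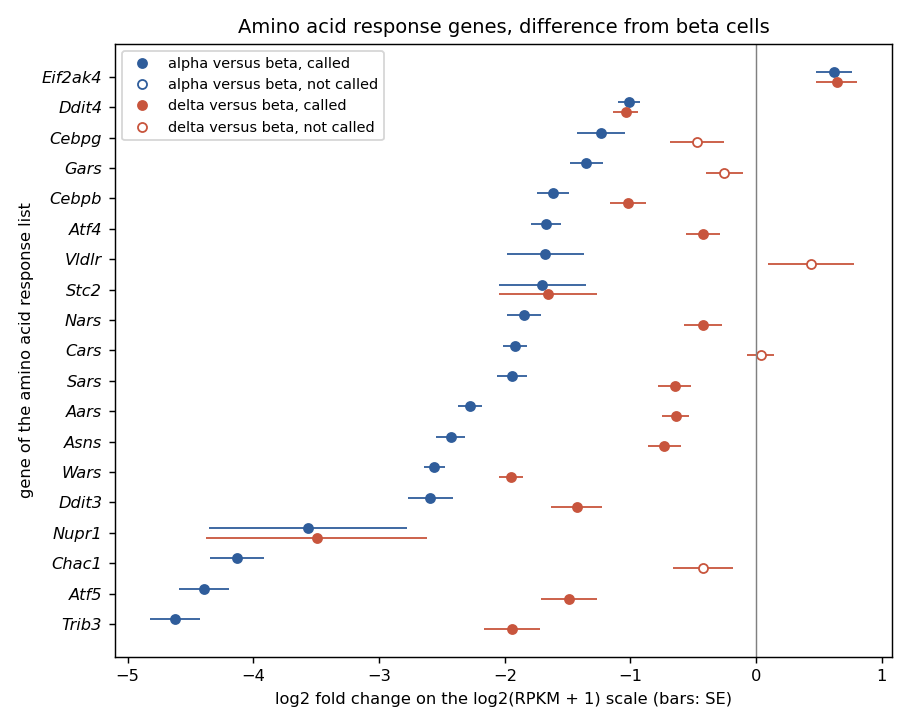
Log2 fold change from beta cells of the 19 genes of the amino acid response list in alpha cells (blue) and delta cells (red), with SE bars, filled where called. Apart from Eif2ak4 each alpha value lies below -1, and Trib3, Atf5 and Chac1 lie below -4.

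The next lists hold enzymes that make or use the carried amino acids, and their counts are read against the 23.7% of all genes tested that were higher and the 30.3% that were lower in alpha than in beta cells. Of 14 enzymes of serine, glycine and sulphur metabolism, 3 were higher (21.4%) and 6 lower (42.9%) in alpha than in beta cells. Phgdh, which opens serine synthesis, stood at 0.42 ± 0.0744 RPKM in alpha cells, 8.53 ± 0.101 in delta cells and 18.4 ± 5 in beta cells (-3.75, limma adjusted p = 6.78e-07). Psat1, the next enzyme, averaged 8.19, 40.4 and 59.1 RPKM in alpha, delta and beta cells. Cdo1, which oxidises cysteine on the way to taurine, was higher in both, at 14.4 RPKM in alpha cells and 25 in delta cells against 1.31 in beta cells. Of 13 tested enzymes of glutamine, glutamate and aspartate, 3 were higher (23.1%) and 8 lower (61.5%) in alpha cells than in beta cells. The counts between delta and beta cells were again 3 and 8, where 37.4% of all genes tested were higher and 13.3% lower. Glud1, glutamate dehydrogenase, averaged 79.6, 66.3 and 40.4 RPKM in alpha, delta and beta cells, and Gpt2, an alanine aminotransferase of mitochondria, averaged 2.45, 8.43 and 15.2 RPKM.

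Of 12 tested enzymes of branched-chain amino acids, 5 (41.7%) were lower in alpha than in beta cells, against 30.3% of all genes, and 7 were not called, with Bcat2, the mitochondrial aminotransferase, at 3.46 against 10.6 RPKM. Of 27 tested genes of amino acid sensing by mTORC1, 4 were higher (14.8%) and 10 lower (37%) in alpha cells, against the 23.7% and 30.3% of all genes tested. Rragb, a Rag GTPase that brings mTORC1 to lysosomes, averaged 108 RPKM in alpha cells, 40.4 in delta cells and 21.6 in beta cells (2.34 between alpha and beta, limma adjusted p = 3.74e-06). Eif4ebp1, the translation repressor that mTORC1 inactivates and ATF4 induces, averaged 11.9, 44.6 and 90.5 RPKM. Of 12 tested carriers of amino acids and amines outside the named families, 1 was higher (8.33%) and 9 lower (75%) in alpha cells. The one that was higher, Slc16a10 (TAT1), a carrier of aromatic amino acids, averaged 63 RPKM in alpha cells, 56.4 in delta cells and 29.7 in beta cells.

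Markers of other cells moved with some groups. The summed level of 13 acinar markers was 216 to 10710 RPKM in beta cells, 94.4 to 3528 in alpha cells and 648 to 905 in delta cells. The 8 immune markers added up to 106 to 200 RPKM in beta cells, 75.6 to 88.8 in delta cells and 22.7 to 41.4 in alpha cells, and the 6 ductal markers to 547 to 712, 339 to 409 and 838 to 1938 RPKM. Ppy, the hormone of PP cells, averaged 17546 RPKM in delta libraries and 5268 in alpha libraries. No gene of these lists was at 0 in every library. The part of these cells in the member differences was not tested beyond leaving out the 3 libraries highest in acinar markers, after which 7 members were higher and 13 lower in alpha than in beta cells.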

How the data were processed

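RPKM values of 10 libraries were deposited in 1 table. The submitters' processing notes name STAR 2.4, featureCounts, edgeR 3.12.0 and GRCm38.p3. Neither the annotation nor a scaling factor is given in the sources used here. Per the labels' protocols, libraries were made with a TruSeq kit, version 2, which does not mark strand. RPKM are a share of the library, and 7 hormone genes took 9.81% to 31.8% of reads. Library totals were recovered from the steps of the deposited RPKM values, and the recovered reads of each library came to at least 99.995% of its total.

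The test was limma 3.58.1 (R 4.3.3, trended variance) on log2(RPKM + 1), with terms for cell type and sex, fitted on all 10 libraries together after a filter of 1 RPKM in at least 2 libraries. Benjamini-Hochberg adjustment ran over 12700 genes. The fit was tested on simulated data. Alternatives were other pseudocounts, filters and scalings, no sex term, only the cell types compared, removal of the alpha share set by Gcg (or the delta share set by Sst), and leaving out each library. Added after seeing the data were limma's voom on recovered reads, totals without hormone reads, a block of libraries with adjacent title numbers, and leaving out the 3 libraries highest in acinar markers.

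The members and lists were chosen with earlier results of these data known. Named genes are the members, with statistics for Slc7a2, Slc38a5 and the called members with the largest differences, and up to 3 called and 2 uncalled genes of each list. Coordinates are from GENCODE's annotation of GRCm38, matched by symbol, and promoters from RefSeq. Values of some marker and enzyme genes are not reported here.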

Additional observations from a re-analysis of the deposited data

Results flagged for a closer look

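In 33 groups of beta libraries, 1 for each tested member, the highest or lowest library was compared with the others by Dixon's criterion at the 95% level, which chance passes in about 1 of 20 groups, and 7 passed. Beta library 2 was far above the other beta libraries for Slc7a4 (15 RPKM, others 10.7 to 11.4), Slc7a8 (84.8 RPKM, others 49.9 to 55.9) and Slc43a2 (42.1 RPKM, others 28.6 to 29.7). Beta library 4 stood apart for Slc7a3 (11.9 RPKM, others 3.92 to 6.18) and Slc38a7 (18.9 RPKM, others 14.4 to 15.6). Beta library 5 stood apart at low levels for Slc38a1 (0.25 RPKM, others 0.0585 to 0.0805) and Slc38a11 (0.117 RPKM, others 0 to 0.0268). Delta and alpha cells have too few libraries for this comparison.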

How the results depend on the processing

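None of the 59 differences of single members that were refitted (Slc7a2, Slc38a5 and the called members with the largest differences) changed direction under the alternatives run. The calls of Slc36a1, Slc38a10 and Slc3a2 between alpha and beta cells were outside this set and were not followed one by one through the alternatives. The number of members higher in delta than in beta cells was 9 as reported, 5 with a filter of 5 RPKM and 4 with median-ratio scaling, and 1 to 11 when 1 library was left out. Leaving out 1 library gave 5 to 9 members lower in delta than in beta cells, 9 to 17 higher in delta than in alpha cells, and 8 to 14 genes of the amino acid response list lower in delta than in beta cells. Each lowest count came without delta library 1, and the 5 also without delta library 2. The cause was not tested, beyond the smaller number of libraries. Over all genes, median-ratio scaling changed the split between delta and beta cells from 4750 higher and 1692 lower to 3068 and 3098, and that between delta and alpha cells from 4076 and 748 to 1816 and 1325. Of 1343 refits of single members, 1259 kept their side of the threshold, 81 lost a call and 3 gained one. The gains were all of Slc7a2, lower in delta than in beta cells. Tests with edgeR and DESeq2 on recovered reads were planned and not run, and limma's voom took their place. The labels give no replicate numbers that cell types share. Titles of beta libraries 4 and 5, both female, carry the same number and differ by a letter, as do those of alpha libraries 1 and 2, both male. Whether such libraries came from the same pool of mice is not stated, and each was counted as a separate library. The series' design text says that beta cells were sorted out of islets that also gave delta or alpha cells, and titles with adjacent numbers may mark such pairs, so a fit with these 4 pairs as a replicate block in place of the sex term was added after seeing the data. Under this block the count of members higher in delta cells, compared with beta cells, was 14. The other counts of members moved by less than 1.5 times. Deviations from the cell type means correlated by 0.00144, 0.372, 0.269 and 0.464 within the pairs, and both libraries were each other's best match only in the last, beta library 5 and alpha library 3. With 2 delta libraries, and 1 to 3 female libraries per cell type, small differences were not detectable.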

Other observations

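Some carriers below the filter were still detected above their level elsewhere, Slc6a20a and Slc6a11 in the delta libraries and Slc1a7 in the beta libraries. They are named after their values were seen. Slc6a20a, a proline carrier that lies beside its close relative Slc6a20b, gave 40 and 33 reads in the delta libraries (1.05 and 0.938 RPKM), 0 to 6 in the beta libraries and 1 to 2 in the alpha libraries. The assignment of reads shared with Slc6a20b is unknown, and its exons overlap Ccr9 on the opposite strand. Slc6a11 (GAT3), a GABA carrier, stood at 0.304 and 0.305 RPKM in the delta libraries, 0.0139 to 0.0906 in the beta libraries and 0 to 0.0295 in the alpha libraries. Slc1a7, a glutamate carrier, stood at 0.0953 to 0.201 RPKM in the beta libraries, at 0 in both delta libraries and at 0 to 0.0197 in the alpha libraries.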
